A study of Homo sapiens with 9 samples.

Results

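The genes MSH3, MSH6, MLH3, PMS1 and PMS2 of the MutS and MutL families of DNA mismatch repair were followed by RNA-seq in HepG2 cells, an established human liver tumor line. They were chosen by name, and all 5 have a row among the 22587 genes of the table. The 9 libraries fall into 3 groups of 3: cells in normal medium with glutamine (Gln) added, cells deprived of Gln for 12 h and cells deprived of Gln for 24 h. The labels list GlutaMAX, a dipeptide source of Gln, as the treatment of the normal medium, whereas the treatment protocol places it in the glutamine-free medium. The labels name no transgene, knockdown or drug in any group. The harvest time of the cultures with Gln added is not given in the sources used here. The labels number the replicates without saying that they were separate cultures, so p-values measure only the spread between these samples, which may be technical.

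Mismatch repair removes bases that were wrongly inserted, or small loops left, when DNA is copied. MutS proteins find the error: MSH6 belongs to the dimer MutSα, which reads single mismatches and very short loops, and MSH3 to the dimer MutSβ, which reads longer loops. MutL proteins then act at the site: PMS2 belongs to MutLα and carries the nuclease that nicks the new strand, MLH3 belongs to MutLγ, known for its part in meiotic crossovers and in repeat expansion, and PMS1 belongs to MutLβ, whose role in repair is the least clear. The exonuclease EXO1 then removes the strand, and the polymerase, clamp and ligase of DNA replication fill the gap.

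The genes lie on 4 chromosomes of GRCh38 (GENCODE v44). MSH3 (ENSG00000113318.11) spans 80654652 to 80876815 of chromosome 5 on the plus strand. MSH6 (ENSG00000116062.19) spans 47695530 to 47810063 of chromosome 2 on the plus strand, and PMS1 (ENSG00000064933.19) spans 189784085 to 189877629 of the same chromosome and strand. MLH3 (ENSG00000119684.16) spans 75013769 to 75051532 of chromosome 14 and PMS2 (ENSG00000122512.17) spans 5970925 to 6009130 of chromosome 7, both on the minus strand.

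The start regions of the 5 genes differ in the letters they hold. Each gene was given a window of 300 bases around a RefSeq start site (GRCh38.p14, 250 before and 50 after). RefSeq held 4 windows for MSH6 and 2 for PMS2, and only that nearest the canonical GENCODE start was used. In these windows, 4 motifs were searched on both strands besides the CCAAT box. They were the E2F site (TTTCCCGC, TTTCGCGC, TTTGCCGC or TTTGGCGC), named for the factors that drive S phase genes, the cyclic AMP response element TGACGTCA, the AP-1 site TGANTCA and runs of G that can form a G-quadruplex (4 runs of at least 3 with loops of 1 to 7 bases). The matches of MSH6 and PMS2 are printed 5′ to 3′ on the strand of the gene to show the letters found, with the motif in capitals. Positions count from the start site.
MSH6, E2F (chr2:47783140-47783163, from 4 to 11): cccccagaTTTCCCGCcagcagga
PMS2, cyclic AMP response element (chr7:6009195-6009218, from -161 to -154): aggctcttTGACGTCAcgaagtcg
PMS2, E2F (chr7:6009134-6009157, from -100 to -93): gaagtattTTTGCCGCcccgcccg

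The MSH3 window also held the E2F letters, as a pair of matches that overlap on opposite strands, and it was the only window of the 5 with a G-quadruplex pattern. The windows of MLH3 and PMS1 held none of these 4 motifs. Among 35116 promoter windows of the same length, 3.31% held the E2F letters, 1.85% the cyclic AMP response element, 7.71% the AP-1 letters and 25.0% a G-quadruplex pattern. The CCAAT box, found in 34.6% of windows, was in those of MSH6, PMS1 and PMS2. GC content was 78% in the MSH6 window, 72% in PMS1, 71% in MSH3, 61.7% in PMS2 and 51% in MLH3, beside a median of 58.7% over all windows. These matches describe the letters in the window and are not evidence of binding.

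Levels are in FPKM, the fragments of a library that fell on a gene divided by its length and by sequencing depth. Comparing them between genes relies on the length used for each gene and on how shared reads were counted. Libraries held 29621270 to 36261546 fragments on genes, and 572 to 942 fragments lay behind each MSH3 value, 1746 to 4022 behind MSH6, 650 to 998 behind MLH3, 774 to 1492 behind PMS1 and 383 to 568 behind PMS2. All 8 hepatocyte markers were expressed, with a sum of 7381 to 7481 FPKM in cells with Gln, 6473 to 6539 at 12 h and 6258 to 6581 at 24 h. Of 6 markers of immune, endothelial and stromal cells, 4 had a value, and the summed level of 36.3 to 36.6 FPKM in cells with Gln, 28.8 to 31.7 at 12 h and 21.3 to 25.9 at 24 h was almost wholly the lysosomal gene CD68. COL1A1 was at 0 in all libraries with Gln added and COL3A1 at 0 in all libraries at 12 h, and the part of these markers in the results was not tested. Among the deprived libraries, replicate 3 at 12 h and replicate 1 at 24 h stood apart. By chi-square per degree of freedom, pairs with replicate 3 at 12 h gave 7.84 and 8.34, and the remaining pair 3.38. Pairs with replicate 1 at 24 h gave 14.4 and 9.62, and the remaining pair 5.175. Across genes, the deviations of replicate 3 at 12 h and replicate 1 at 24 h from their group means were opposed (r = -0.47). Genes are not independent replicates. Where leaving out either library changed whether a MutS or MutL gene passed the test against Gln added, the value without it is given. Other shifts are given only in part.

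MSH6 was the most abundant of the 5 genes in each group and showed the largest change of the 5 at both times, a decrease. Its levels were 21.9, 21.9 and 23.7 FPKM with Gln added. At 12 h they were 12.4, 12.0 and 12.1 FPKM, and at 24 h they were 12.4, 11.6 and 12.0 FPKM. Each deprived library lay far below each library with Gln added, while the libraries of 12 h and 24 h overlapped. Mean MSH6 was 22.5 ± 1.05 FPKM (SD, n = 3) in cells with Gln, 12.2 ± 0.182 at 12 h and 12.0 ± 0.394 at 24 h. Tests used log2(FPKM + 0.1), and on this scale the fold change of MSH6 was -0.88 at 12 h (SE 0.045, limma adjusted p = 7.6e-08), a decrease in mean FPKM with a percent change of -46.0. At 24 h it was -0.90 (SE 0.045, limma adjusted p = 3.85e-08), with a percent change of -46.7. Between 12 h and 24 h the MSH6 difference was -0.02, with a 95% confidence interval from -0.12 to 0.08 (limma adjusted p = 0.793). In bulk RNA, fewer cells that express a gene and less of its RNA per cell cannot be told apart, and FPKM are shares of a library, not amounts per cell.

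MSH3, the alternative MutS subunit, was expressed below MSH6 in each library and changed less. It measured 5.09, 5.26 and 5.96 FPKM with Gln added. At 12 h it measured 4.35, 4.87 and 5.17 FPKM, and at 24 h 4.55, 4.30 and 4.81 FPKM. The 12 h libraries of MSH3 overlapped those with Gln added, and the 24 h libraries lay below all of them. The MSH3 log2 fold change was -0.18 at 12 h (SE 0.081, limma adjusted p = 0.0774) and -0.25 at 24 h (SE 0.081, limma adjusted p = 0.0192). The 24 h call was lost without replicate 3 with Gln added (-0.18, limma adjusted p = 0.0834), without replicate 2 at 24 h (-0.21, 0.0660) and when library totals of FPKM were made equal (-0.20, 0.0531). The 12 h value rested on single libraries in both directions: it passed the test without replicate 3 at 12 h (-0.23, limma adjusted p = 0.0389). It shrank to -0.11 without replicate 1 at 12 h (limma adjusted p = 0.271) and to -0.11 without replicate 3 with Gln added (0.276).

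**Figure D1:**
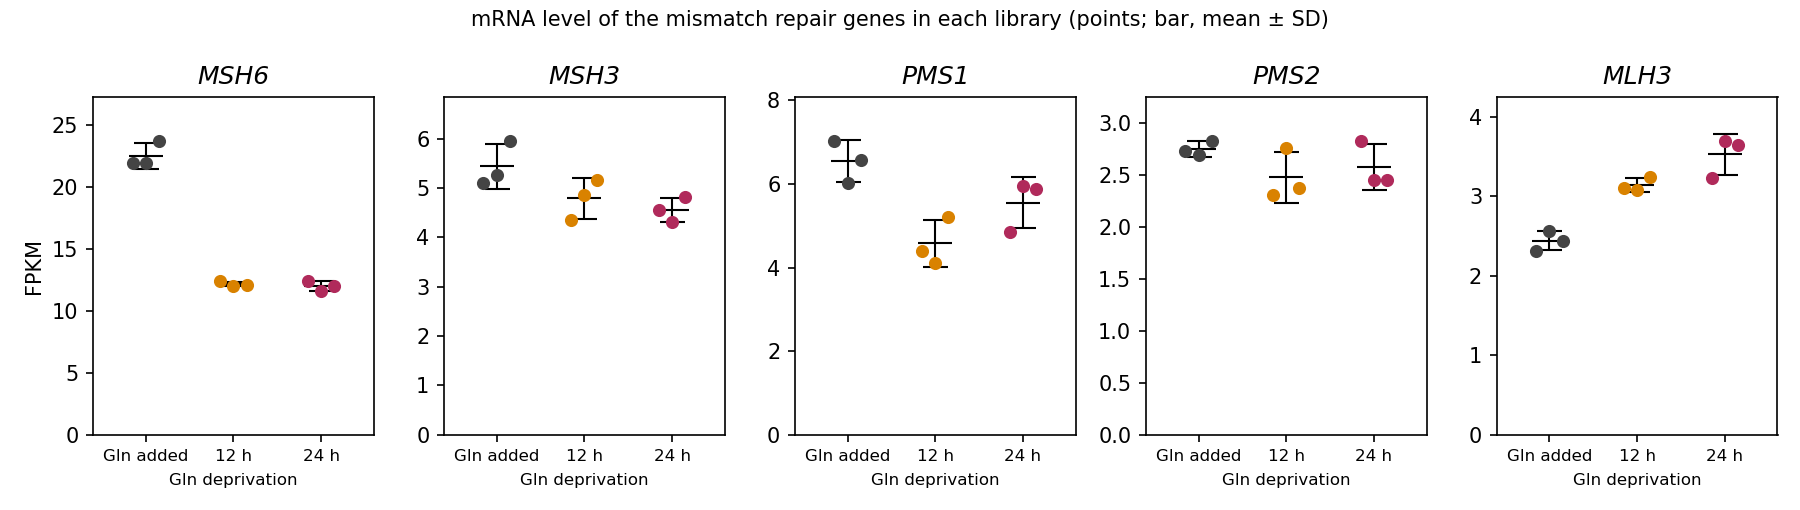
Level of each gene in FPKM (vertical axes, each from 0) in the 3 libraries with Gln added and the 3 libraries each after 12 h and 24 h of Gln deprivation. Points are libraries and bars the mean ± SD: MSH6 goes from 22.5 to 12.2 and 12.0 FPKM, MLH3 rises from 2.44 to 3.14 and 3.53, and the PMS2 libraries overlap.

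PMS1 was the most abundant of the 3 MutL genes and was lowest at 12 h. It measured 7.04, 6.03 and 6.58 FPKM with Gln added, 4.40, 4.11 and 5.21 at 12 h, and 4.84, 5.94 and 5.88 at 24 h. Neither deprived group overlapped the libraries with Gln added, although the highest library at 24 h (5.94) came close to the lowest with Gln added (6.03). The PMS1 log2 fold change was -0.51 at 12 h (SE 0.10, limma adjusted p = 0.00143), and at 24 h it was -0.24 (SE 0.10, limma adjusted p = 0.0639), which did not pass the test. From 12 h to 24 h the PMS1 difference was 0.27 (limma adjusted p = 0.0868), with the libraries of both times overlapping. The deprived libraries that stood apart were the highest PMS1 value at 12 h and the lowest at 24 h. Without replicate 3 at 12 h the difference between the times was 0.37 (limma adjusted p = 0.0294), and without replicate 1 at 24 h it was 0.37 (0.0252). The 24 h value of PMS1 shrank to -0.14 without replicate 1 at 24 h (limma adjusted p = 0.224). It passed the test without replicate 2 with Gln added (-0.30, limma adjusted p = 0.0483) and without replicate 3 at 12 h, which enters through the shared spread (-0.24, 0.0371). It also passed with median-ratio scaling (-0.25, 0.0452), with only the groups compared in the fit (-0.24, 0.0481) and with voom on the recovered fragments (-0.24, 0.0268).

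PMS2, which carries the nuclease of the main MutL dimer, did not pass the test at either time. It measured 2.73, 2.69 and 2.83 FPKM with Gln added, 2.31, 2.76 and 2.37 at 12 h, and 2.83, 2.45 and 2.45 at 24 h. In each deprived group a single library reached the level of the cultures with Gln added. The PMS2 log2 fold change was -0.15 at 12 h, with a 95% confidence interval from -0.34 to 0.04 (limma adjusted p = 0.161). At 24 h it was -0.09, with an interval from -0.29 to 0.10 (limma adjusted p = 0.363). Without replicate 2 at 12 h, the high library, the 12 h value was -0.23 (limma adjusted p = 0.0489). The 24 h value was -0.16 without replicate 1 at 24 h, the high library (limma adjusted p = 0.140), and -0.06 without replicate 2 or replicate 3 at 24 h (0.612 and 0.620). With library totals of FPKM made equal it was -0.05 (0.646). The genome holds near-identical copies of parts of PMS2, and no PMS2CL, PMS2P or PMS1P symbol has a value here, so its level is uncertain where the counting could split or drop shared reads.

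MLH3 was the 1 gene of the 5 that rose. It measured 2.32, 2.56 and 2.44 FPKM with Gln added, 3.10, 3.09 and 3.24 at 12 h, and 3.24, 3.70 and 3.64 at 24 h. No MLH3 value from deprived cells was as low as any from cells with Gln. The MLH3 mean rose from 2.44 ± 0.122 FPKM (SD, n = 3) to 3.14 ± 0.0859 at 12 h, a percent change of 28.8, and to 3.53 ± 0.254 at 24 h, a percent change of 44.5. The log2 fold change was 0.35 at 12 h (SE 0.072, limma adjusted p = 0.00151) and 0.51 at 24 h (SE 0.072, limma adjusted p = 9.51e-05). The further MLH3 difference from 12 h to 24 h was 0.16 (limma adjusted p = 0.145), which did not pass the test.

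Counted together, 3 of the 5 genes passed the test at 12 h, MLH3 higher and MSH6 and PMS1 lower. Of the 11880 genes tested, 60.2% were called at 12 h, 29.1% higher and 31.0% lower, so the share among the 5 lies near the background. At 24 h 3 of 5 passed as well, MLH3 higher and MSH6 and MSH3 lower, beside 64.7% of all genes tested, 33.0% higher and 31.7% lower. The libraries did not overlap those with Gln added for 3 of the 5 genes at 12 h (67.2% of all genes tested) and 4 of 5 at 24 h (69.9%). Between 12 h and 24 h limma called 0 of the 5, beside 20.1% of all genes tested (9.57% higher and 10.5% lower), with 2 (PMS1 and MLH3) at an unadjusted p under 0.05, and voom called 0. All 5 overlapped between those times, whereas 34.4% of all genes tested did not. The median log2 fold change of the 5 was -0.18 at 12 h and -0.24 at 24 h, and that of all genes tested -0.02 and 0.01. Both comparisons with Gln added use the same 3 control libraries.

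**Figure D2:**
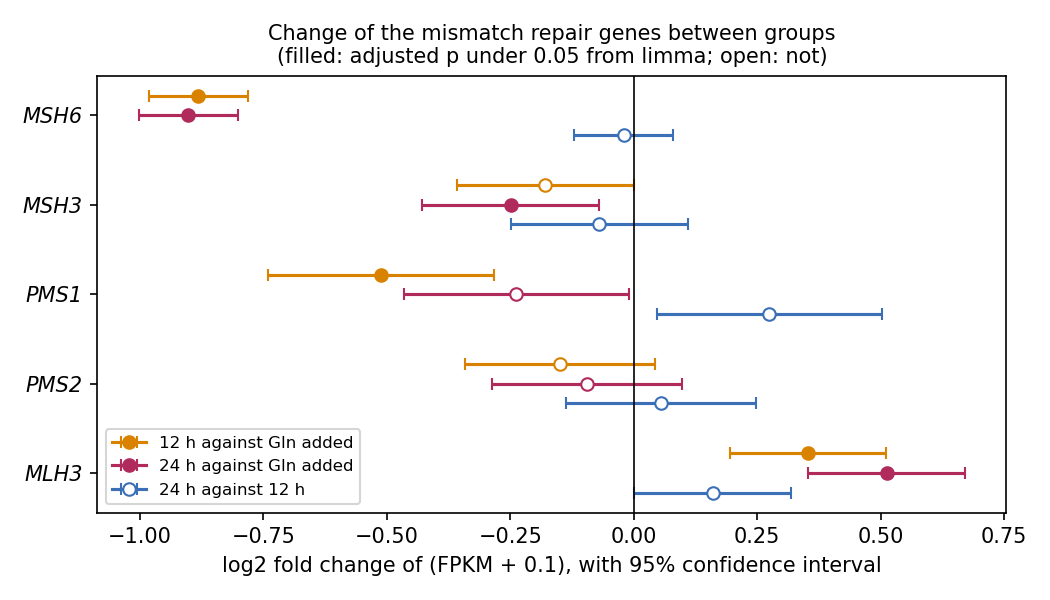
Log2 fold change of (FPKM + 0.1) with its 95% confidence interval (horizontal axis) for each of the 5 genes in the 3 comparisons, from limma with 3 libraries per group. Filled points have an adjusted p under 0.05: MSH6 sits near -0.9 at both times, MLH3 to the right of 0, and the 5 points of 24 h against 12 h are all open.

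The order of the levels changed among the less abundant genes. Such an order depends on the gene lengths used for FPKM, and the level of PMS2 is uncertain as given above. With Gln added it ran MSH6, PMS1, MSH3, PMS2 and MLH3, and no neighbours in that order overlapped, although PMS1 and MSH3 were separated only by 6.03 against 5.96 FPKM. At 12 h MSH3 (4.79 FPKM) and PMS1 (4.58 FPKM) overlapped, and MLH3 lay above PMS2, with a lowest MLH3 library of 3.09 and a highest PMS2 library of 2.76 FPKM. At 24 h PMS1 was again above MSH3, by 4.84 against 4.81 FPKM for the nearest libraries, and MLH3 remained above PMS2, by 3.24 against 2.83. MSH6 exceeded 86.8% of the genes above 0 with Gln added and 78.1% at both deprived times. MLH3 exceeded 55.3% of them with Gln added, then 57.8% at 12 h and 59.6% at 24 h.

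Ratios within a library do not depend on the scaling between libraries. The MSH6 to MSH3 ratio was 4.30, 4.16 and 3.98 with Gln added, 2.84, 2.47 and 2.34 at 12 h and 2.72, 2.69 and 2.50 at 24 h. Neither deprived group overlapped the libraries with Gln added, while the ratios at 12 h and 24 h overlapped. The MSH6 share of the summed FPKM of MSH6 and MSH3 went from 80.5% ± 0.611 (SD, n = 3) to 71.7% ± 2.02 at 12 h and 72.5% ± 0.922 at 24 h. The sum itself went from 27.9 ± 1.501 FPKM to 16.9 ± 0.286 and 16.5 ± 0.570. The difference in the log2 ratio was -0.70 at 12 h and -0.65 at 24 h, each with the smallest p that 3 libraries against 3 allow in a two-sided exact permutation test (p = 0.1, adjusted p = 0.171 over 12 tests).

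Among the MutL genes, the PMS2 to MLH3 ratio was above 1 in each library with Gln added (1.18, 1.05 and 1.16) and below 1 in each deprived library. It was 0.74, 0.89 and 0.73 at 12 h and 0.87, 0.66 and 0.67 at 24 h. Whether this ratio lies above or below 1 depends on the gene lengths used and on the uncertain level of PMS2. PMS1 to MLH3 ratios were 3.04, 2.35 and 2.70 with Gln added, 1.42, 1.33 and 1.61 at 12 h and 1.496, 1.60 and 1.61 at 24 h. Neither ratio overlapped between deprived cells and cells with Gln added. The log2 ratio of PMS2 to MLH3 differed by -0.52 at 12 h and -0.63 at 24 h, and that of PMS1 to MLH3 by -0.89 and -0.77, again with p = 0.1 in the exact permutation test (adjusted p = 0.171). PMS2 to PMS1 was higher without overlap at 12 h (0.55 ± 0.110 against 0.42 ± 0.0299, SD, n = 3; exact permutation p = 0.1) and overlapped at 24 h (0.47 ± 0.0981; exact permutation p = 0.7). At 12 h the nearest libraries were 0.455 against 0.446, and without replicate 2 at 12 h (ratio 0.67) the log2 difference went from 0.37 to 0.21. At 24 h it went from 0.14 to -0.02 without replicate 1 at 24 h, to 0.23 without replicate 2 and to 0.22 without replicate 3 at 24 h, and to 0.09 without replicate 1 with Gln added.

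The summed FPKM of the 3 MutL genes was 11.7 ± 0.415 (SD, n = 3) in cells with Gln, 10.2 ± 0.550 at 12 h and 11.7 ± 0.652 at 24 h. Within that sum the MLH3 share went from 20.8% ± 1.78 to 30.8% ± 0.841 and 30.2% ± 0.501. The PMS1 share went from 55.7% ± 2.39 to 44.8% ± 3.42 and 47.5% ± 2.73, and the PMS2 share was 23.5% ± 0.732, 24.4% ± 2.99 and 22.2% ± 3.22. All 4 ratios overlapped between 12 h and 24 h.

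**Figure D3:**
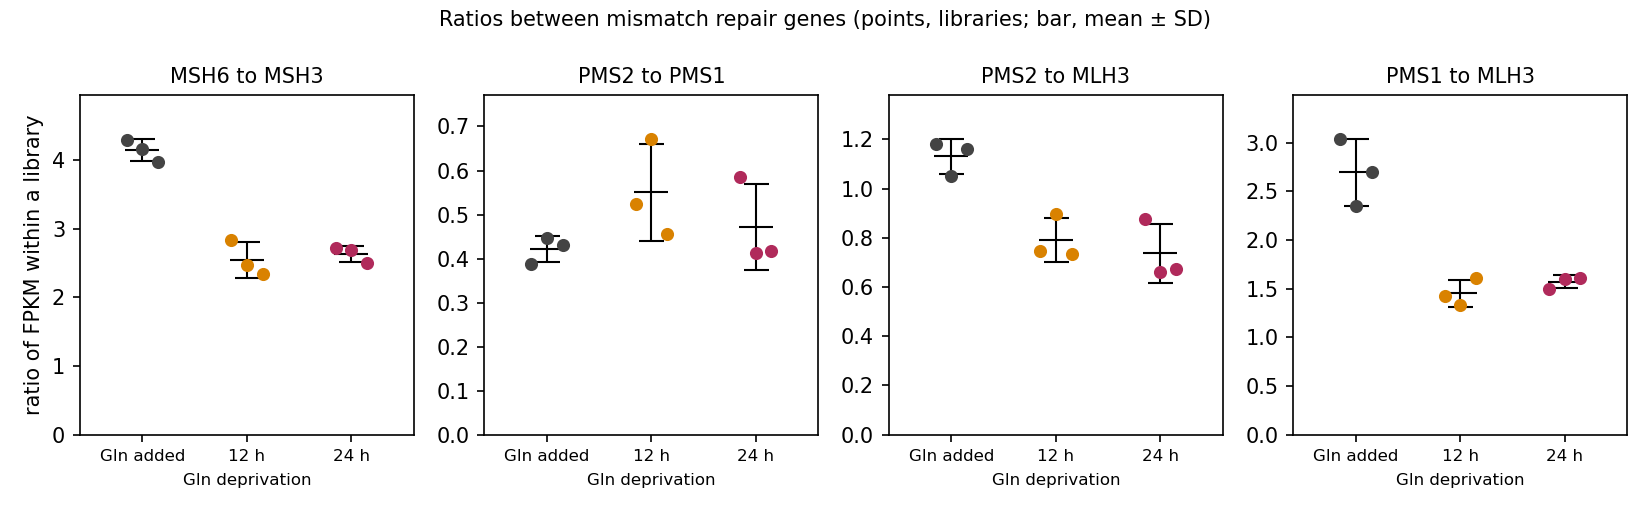
Ratio of FPKM of 2 genes within each library (vertical axes, each from 0) for MSH6 to MSH3, PMS2 to PMS1, PMS2 to MLH3 and PMS1 to MLH3, by group. Points are libraries and bars the mean ± SD: MSH6 to MSH3 goes from 4.14 to 2.55 and 2.63, and PMS2 to MLH3 from 1.13 to 0.79 and 0.74.

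The later steps of mismatch repair were followed with a list of 16 genes for strand removal and resynthesis, most of which also serve DNA replication. At both times 15 of the 16 were lower than with Gln added and 1 was higher, with a median log2 fold change of -0.64 at 12 h and -0.79 at 24 h. Of all genes tested, 31.0% were lower and 29.1% higher at 12 h, and 31.7% lower and 33.0% higher at 24 h. EXO1, the exonuclease, was at -0.84 at 12 h (limma adjusted p = 4.08e-06) and -1.31 at 24 h (9.16e-08) on that scale, with mean levels of 5.82, 3.21 and 2.29 FPKM. LIG1, the ligase that seals the new strand, had log2 fold changes of -1.02 and -1.39. PCNA, the sliding clamp that also activates the MutL nuclease, went from 315 FPKM to 162 and 160 (log2 fold changes -0.96 and -0.97). The clamp loader genes RFC1 to RFC5 had values from -0.84 (RFC3) to -0.35 (RFC4) at 12 h and from -1.17 (RFC5) to -0.40 (RFC1) at 24 h. The single-strand binding genes RPA1, RPA2 and RPA3 had values of -0.89, -0.47 and -1.004 at 12 h and -0.997, -0.45 and -1.19 at 24 h. Among the polymerase delta subunits, POLD1, POLD2 and POLD3 all fell, with log2 fold changes of -0.50, -0.44 and -0.49 after 12 h and -0.53, -0.68 and -0.63 after 24 h. POLD4, the smallest subunit, rose by 0.55 at 12 h and 0.92 at 24 h.

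Between 12 h and 24 h, limma called 4 of these 16 genes lower (EXO1 -0.48, LIG1 -0.37, RFC5 -0.35 and POLD2 -0.24) and 1 higher (POLD4 0.37). Of all genes tested, it called 10.5% lower and 9.57% higher between these times. PCNA, with a difference of -0.02, was not called. In a list of 18 replication licensing and nucleotide supply genes, used for comparison, 18 of 18 were lower at each time. The share lower over all genes tested was 31.0% after 12 h and 31.7% after 24 h. The median of the list was -0.79 after 12 h and -1.04 after 24 h. From 12 h to 24 h 13 of the 18 were lower again, with a median of -0.22, and that count was 8 without replicate 1 or 2 at 12 h or without replicate 2 at 24 h. RRM2, the small subunit of ribonucleotide reductase, had a 24 h against 12 h difference of -0.50, and E2F1, the S phase transcription factor, one of -0.05 that did not pass the test. MSH6, with log2 fold changes of -0.88 and -0.90, thus lay below the median of the comparison list at 12 h and above it at 24 h, which describes the position and is no test.

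Of 5 factors that work with mismatch repair, at both times 1 was higher (SETD2), 2 were lower (MCM8 and BRIP1) and 2 were not called (MCM9 and FAN1). The 3 called lie near the share over all genes tested, 60.2% at 12 h and 64.7% at 24 h, and the list's median was -0.02 and 0.00. SETD2, which sets the histone mark that MSH6 binds on chromatin, had log2 fold changes of 0.35 at 12 h (limma adjusted p = 2.05e-05) and 0.35 at 24 h (1.40e-05), in the opposite direction to MSH6. The helicase gene BRIP1 had values of -1.04 and -1.18, and MCM8, a relative of the replicative helicase, -0.40 and -0.76. FAN1, a nuclease that binds MutL proteins, had values of -0.02 (95% confidence interval from -0.15 to 0.12) and 0.00 (from -0.13 to 0.14).

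**Figure D4:**
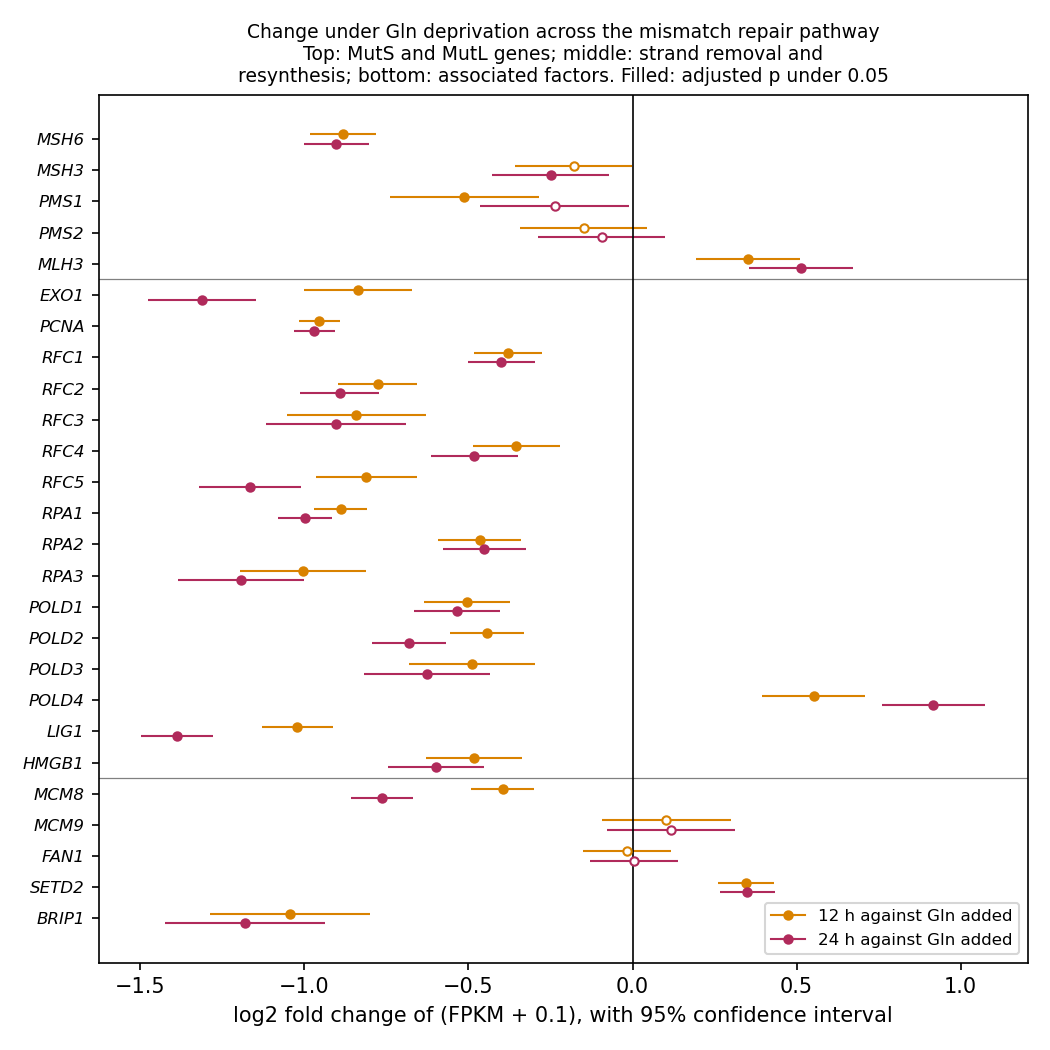
Log2 fold change of (FPKM + 0.1) with 95% confidence interval (horizontal axis) after 12 h and 24 h of Gln deprivation against Gln added, for the 5 MutS and MutL genes (top), 16 strand removal and resynthesis genes (middle) and 5 associated factors (bottom). Filled points have an adjusted p under 0.05 from limma: in the middle block 15 of 16 genes lie left of 0 at both times, POLD4 lies to the right, and MLH3 and SETD2 lie to the right in the other blocks.

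Neighbours of PMS1 and PMS2 start close by on the opposite strand, and their values differed from those of the repair gene. ORMDL1, a regulator of sphingolipid synthesis, starts 111 bases from PMS1 in the opposite direction and had log2 fold changes of 0.19 and 0.42 (limma adjusted p = 0.00470 and 1.66e-05), where those of PMS1 were -0.51 and -0.24. AIMP2, a scaffold of the tRNA synthetase complex, starts 223 bases from PMS2 in the opposite direction and rose by 0.25 and 0.30. The cyclic AMP response element and the E2F match printed for PMS2 lie between the start sites of PMS2 and AIMP2. They therefore cannot be assigned to PMS2 alone. Differences between these neighbours and the repair genes were not tested, and the close neighbour of MSH3 is not reported here.

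The bodies of MSH6 and FBXO11, a ubiquitin ligase gene on the opposite strand, overlap, and their ends lie 20747 bases apart. In GENCODE v44, 24.2% of the exonic bases of MSH6 lie under exons of other genes on the opposite strand. The same holds for 5.87% of those of MSH3, 1.76% of those of PMS1 and none of those of MLH3 and PMS2. These shares are of all annotated exons, 17722 bases for MSH6, whereas the length recovered from its FPKM was 4771 bases. The share within the counted bases may therefore differ. The sources name different library kits, so whether the counting used strand is not settled, and without strand reads from such overlaps cannot be told apart. The FBXO11 values were 0.04 at 12 h (limma adjusted p = 0.505) and 0.25 at 24 h (0.000924). The part of shared reads in the values of MSH6 or FBXO11 was not tested. ACYP1, which lies upstream of MLH3 on the same strand with start sites 12557 bases apart, had values of 0.03 and -0.08 and was not called.

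Genes with the most similar profiles over the 9 libraries were taken from the 7294 genes whose mean reached 5 FPKM, by Pearson's r of log2(FPKM + 0.1), as a description with no test. The libraries form 3 groups, so such an r mostly reflects the group means. For MSH6 they were NSDHL, an enzyme of cholesterol synthesis (r = 0.998), the actin regulator CORO1C (0.997) and the chaperonin subunit CCT4 (0.996). NSDHL went from 21.4 FPKM to 6.64 and 6.55, a larger change than that of MSH6 with the same flat course between 12 h and 24 h. For PMS1 they were SPTSSA, a subunit of serine palmitoyltransferase (r = 0.991), SPCS3 of the signal peptidase (0.988) and TMEM41B of the endoplasmic reticulum (0.986). SPCS3 measured 38.3, 23.1 and 30.5 FPKM in the 3 groups, lowest at 12 h as PMS1 was.

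For MLH3 the most similar were the long non-coding RNA CASC19 (r = 0.992), the forkhead factor FOXJ3 (0.987) and the RNA-binding protein gene CPEB4 (0.984). CPEB4 went from 3.32 FPKM to 7.01 and 8.49. For MSH3 they were DHX57 (r = 0.970), SCO1 (0.950) and THOC1 (0.945), and for PMS2 DDX41 (0.934), DCTN1 (0.900) and APEX2 (0.899). The lower values of r came with the smaller changes of MSH3 and PMS2.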

How the data were processed

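RNA-seq of 9 HepG2 libraries was analysed, in 3 groups of 3 taken from the labels. Per the methods, the authors aligned reads to GRCh38 with STAR and used DESeq2; per the labels, HTSeq and R 3.2.0 were used. The annotation is not given in the sources used here. The deposited values are FPKM, made by the authors for each gene in each library. Whole fragment numbers were recovered from the FPKM steps for 100% of 22587 genes (tolerance 0.001 fragments plus rounding, at most 0.25), and these summed to 99.99% of each solved total. Replicate pairs all differed by more than sampling noise (chi-square per degree of freedom from 2.88 to 14.4 over genes with at least 20 fragments).

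Differences were tested with limma 3.58.1 in R 4.3.3 (lmFit and eBayes, trend on), using log2(FPKM + 0.1) of the 11880 genes whose mean reached 0.5 FPKM, in 1 fit of all groups, with Benjamini-Hochberg adjustment and a threshold of 0.05. Fold changes on this scale understate those of low genes. On simulated data for 12 h against Gln added (11880 genes), 196 of 197 genes changed by 1 on the log2 scale were called, and 12 of 208 calls were false. The 5 genes had log2 fold changes from -0.88 to 0.35 at 12 h, and how often changes below 1 are called was not tested. The data gave 7147 calls at 12 h, and the share of false calls among them was not tested. Within-library log2 ratios were compared by two-sided exact permutation tests. Members and lists were chosen with earlier results of these data known. Named genes are the members, the lists, the neighbours and the 3 most similar profiles of each member, and some genes of the lists are not reported here. Alternatives were other pseudocounts (1 and 0.01), filters and scalings, a 2-group fit, the replicate block, no trend, voom, and each library left out. Replicate numbers were not used to pair the samples in the main fit, and whether equal numbers mark pairs is not stated. Promoters came from RefSeq (GRCh38.p14), matched by symbol for all 5 genes, and positions from GENCODE v44. Figures used matplotlib 3.10.9 in Python 3.11.15.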

Additional observations from a re-analysis of the deposited data

How the results depend on the processing

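Across 19 alternatives, MSH6 kept its decrease with an adjusted p under the threshold at both times (log2 fold changes of -0.90 to -0.84 after 12 h and -0.93 to -0.86 after 24 h), MLH3 kept its increase at both times (from 0.27 to 0.39 and from 0.40 to 0.57), and PMS1 its decrease at 12 h (from -0.61 to -0.44). The number of the 5 genes lower at 24 h went from 2 to 1 with FPKM rescaled to the same total, and lay between 1 and 3 with a library left out. The number higher at 24 h against 12 h went from 0 to 1 without replicate 3 at 12 h or without replicate 1 at 24 h. The difference between 24 h and 12 h changed sign for MSH6 without replicate 2 at 24 h (0.00412, the highest of -0.0429 to 0.00412 with a library left out) and for PMS2 without replicate 1 at 24 h (-0.0120, the lowest of -0.0120 to 0.131), and neither passed the test under any alternative. The replicate block gave MSH3 a limma adjusted p of 0.0290 at 12 h, called 7341, 7802 and 2586 genes in the 3 comparisons, and changed no other call of the 5. The numbers share no stated batch, and deviations of same-numbered libraries had r from -0.14 to 0.28. Median-ratio scaling moved the split of all calls between 24 h and 12 h from 1137 higher and 1249 lower to 847 and 1692. Causes were not tested. The exact tests of ratios cannot go below p = 0.1.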
